A study of Homo sapiens with 22 samples.

Results

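The genes examined here are 8 negative-feedback regulators of WNT signalling: AXIN2, NKD1, NKD2, RNF43, ZNRF3, DKK1, NOTUM and APCDD1. They were listed by their role in the pathway, with earlier results of these data known, and matched by symbol to the Ensembl identifiers of a table of 37908 genes. Of the 8 genes, 7 had a row in the table, 6 had enough reads to be compared between groups, and APCDD1 was not analysed here. The libraries came from H1299 cells, an established line derived from a human lung carcinoma of the non-small cell type, in which doxycycline (DOX) switched on an shRNA that depletes BRCA2. The comparisons ask how genes answer to GSK3 inhibition, how far β-catenin is needed for it, and whether BRCA2 loss alters either.

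All cells carried the shRNA construct and all were transfected with an siRNA. BRCA2-deficient cells were grown with 2 µg/mL DOX for 3 days and BRCA2-proficient cells without it. Within each background, cells with control siRNA received no inhibitor (called untreated) or the GSK3 inhibitor LY2090314 at 250 nM for 24 hours (GSK3i). Cells with siRNA against β-catenin (siβ-catenin) likewise received no inhibitor or, after the siRNA, GSK3i. The study's figure legends state that the cells without inhibitor were given DMSO. There were 22 libraries in 8 groups. The 2 groups of BRCA2-proficient cells without GSK3i held 2 libraries each, both with the numbers 2 and 3, and the other 6 groups held 3. DOX and BRCA2 depletion always went together, so their effects cannot be told apart. The study describes its libraries as independent experiments on a single cell line, and p-values here measure the spread between such experiments.

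When WNT ligands bind Frizzled and LRP receptors, or when GSK3 is inhibited directly, β-catenin escapes phosphorylation and degradation, enters the nucleus and activates genes together with TCF/LEF factors. Several of those genes encode brakes on the same pathway. AXIN2 is a scaffold of the complex that marks β-catenin for destruction, RNF43 and ZNRF3 are membrane ubiquitin ligases that remove Frizzled receptors, DKK1 is a secreted antagonist of LRP co-receptors, NOTUM is a secreted enzyme that strips the lipid from WNT ligands, NKD1 and NKD2 bind Dishevelled, and APCDD1 is a membrane-bound inhibitor. AXIN2 is widely used as a reporter of the pathway. The study itself named AXIN2 from these libraries, so its change here is not independent evidence.

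The members fell on both strands of several chromosomes of GRCh37, and all are protein-coding genes. AXIN2 (ENSG00000168646) lies on the minus strand at chr17:63524681-63557766, with RNF43 (ENSG00000108375) at chr17:56431037-56494956 and NOTUM (ENSG00000185269) at chr17:79910383-79919716 on the same strand of the same chromosome. ZNRF3 (ENSG00000183579) lies at chr22:29279560-29453476, DKK1 (ENSG00000107984) at chr10:54074041-54077802, NKD2 (ENSG00000145506) at chr5:1008917-1039058 and NKD1 (ENSG00000140807) at chr16:50582307-50683160, all on the plus strand. Counts were reads over exons of the whole gene. NKD1, RNF43, ZNRF3, DKK1 and NOTUM overlap genes on the opposite strand, and the strand setting of the counting is not stated. AXIN2, NKD1, RNF43 and ZNRF3 each also overlap a gene on the same strand. Of these overlapping genes, those with a row in the table had few reads. PRKG1-AS1 beside DKK1 had at most 27 counts in a library and the others at most 6.

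The 300 bases before the start of the canonical transcript are shown for AXIN2, which rose with GSK3i and fell with siβ-catenin under it, and for DKK1, which was not called in those comparisons. Sequences were read from GRCh37 on the strand of the gene with GENCODE starts, 5′ to 3′, at chr17:63557767-63558066 (minus) and chr10:54073741-54074040 (plus). Capitals mark matches on either strand to any of 4 motifs of the kind that TCF/LEF factors are known to bind, which are CTTTGAA and also CTTTGAT, along with CTTTGTA and lastly CTTTGTT.
AXIN2: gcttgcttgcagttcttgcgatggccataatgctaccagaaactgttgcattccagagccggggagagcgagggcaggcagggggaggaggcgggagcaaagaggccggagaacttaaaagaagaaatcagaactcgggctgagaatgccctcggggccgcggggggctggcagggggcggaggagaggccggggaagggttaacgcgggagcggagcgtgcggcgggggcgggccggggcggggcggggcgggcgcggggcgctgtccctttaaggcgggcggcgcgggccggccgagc
DKK1: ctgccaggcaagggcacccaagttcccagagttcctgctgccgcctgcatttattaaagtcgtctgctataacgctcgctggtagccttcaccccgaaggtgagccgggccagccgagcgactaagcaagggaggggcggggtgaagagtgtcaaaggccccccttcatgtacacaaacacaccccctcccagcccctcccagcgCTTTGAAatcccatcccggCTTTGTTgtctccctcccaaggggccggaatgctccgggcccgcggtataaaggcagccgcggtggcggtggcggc
The DKK1 window held 2 matches, from -95 to -89 and from -76 to -70 relative to the start, and the AXIN2 window held none. Windows of the same length held 1 match in NKD1 and 1 in NKD2, and 0 in RNF43 and NOTUM. Of 19874 protein-coding genes, 2279 (11.5%) had at least 1 match in such a window, so a match is common, and neither a match nor its absence says anything of binding.

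The labels were examined before the members. Libraries held 18.9 to 29.3 M counts. CTNNB1, which encodes β-catenin, had 976.8 to 2217 normalised counts in the siβ-catenin libraries and 5206 to 8669 in the others, and BRCA2 had 71.4 to 225.3 in BRCA2-deficient and 513.6 to 1111 in BRCA2-proficient libraries, so neither set overlapped. Normalised counts are read counts divided by DESeq2 size factors. The keratins KRT8 and KRT18 were high in every library (at least 2037 and 5068), as was the vimentin gene VIM (at least 12640). In contrast, EPCAM did not exceed 22.2 and KRT19 did not exceed 5.77. Among markers of other cells, PTPRC of leukocytes, CDH5 of endothelium and the surfactant genes SFTPC and SFTPB had at most 3 reads in a library, while CD68 of macrophages had up to 12 (1.93 to 13.8 normalised counts) and the lung factor NKX2-1 up to 138 (19.8 to 108.3). The fibroblast marker COL1A1 ranged from 34.1 to 489.6, with DCN at 17.0 to 44.3 and PDGFRB at 2.68 to 56.3, and their part in the results was not tested.

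The GSK3i label did not match the data in 2 BRCA2-proficient libraries and was in doubt for another. The check used 162 genes raised and 675 genes lowered by GSK3i, called with a log2 change beyond 1 in both siRNA conditions of BRCA2-deficient cells, and took the mean log2 level of the raised genes minus that of the lowered genes. This difference was 0.05 and 0.07 in BRCA2-proficient untreated libraries and 3.03 to 3.06 with GSK3i. The library labelled siβ-catenin replicate 2 gave 2.71, close to libraries with GSK3i. The library labelled siβ-catenin replicate 3 gave 0.82, between libraries with and without GSK3i and nearer to those without it. Replicate 2 of the libraries labelled GSK3i with siβ-catenin gave -0.02, close to libraries without GSK3i, whereas replicates 1 and 3 of the same group gave 2.81 and 2.80. The labels were kept. For some results that use these 3 libraries, values without a doubted library are also given. Without all 3, no BRCA2-proficient library with siβ-catenin alone is left.

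**Figure D1:**
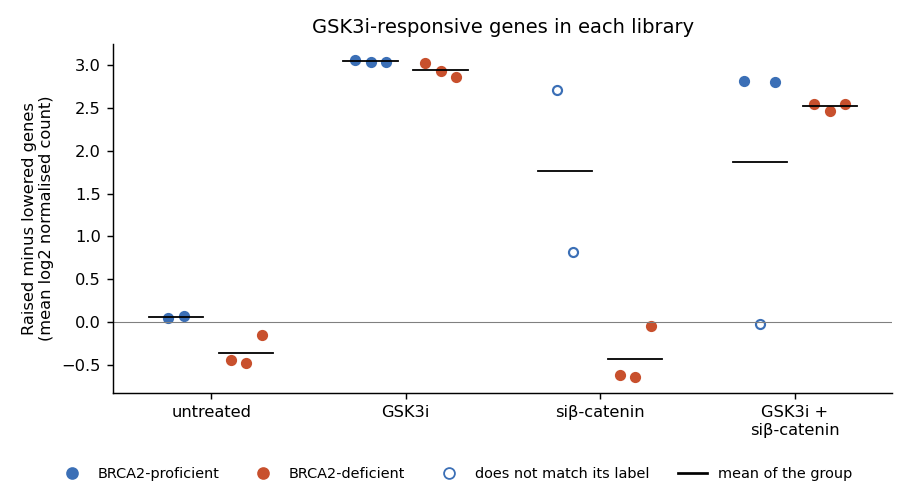
Mean log2 normalised count of 162 genes raised by GSK3i minus that of 675 genes lowered by it, for each of the 22 libraries by treatment, with BRCA2-proficient libraries in blue, BRCA2-deficient in orange and group means as black lines. Open points mark 3 BRCA2-proficient libraries whose label is in doubt, at 2.71, 0.82 and -0.02. The BRCA2-deficient libraries were used to choose the genes.

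The members differed widely in abundance. Per kilobase of the canonical transcript, the mean normalised count in BRCA2-proficient untreated cells was 138.0 for DKK1, 33.9 for ZNRF3, 18.2 for AXIN2, 14.6 for NKD2, 9.34 for NOTUM and 2.09 for RNF43. In BRCA2-deficient cells with GSK3i, AXIN2 was the highest of the 6, at 358.0, followed by DKK1 at 291.0 and ZNRF3 at 93.4, while RNF43 stood at 14.1. NKD1 was too low to read. It had 0 to 4 raw reads per library and 21 in all, with 0 in 10 of 22 libraries, and it passed the filter on low counts in 0 comparisons. Among the genes that were read, RNF43 had 3 to 91 raw reads per library, with fewer than 10 in 5 libraries, NOTUM had 6 to 43 and NKD2 had 7 to 75, so a difference of a few reads weighs heavily in these genes. AXIN2 (50 to 1976), ZNRF3 (139 to 831) and DKK1 (130 to 1598) were well covered. In a bulk library, a higher level may mean more expressing cells or more RNA per cell, which cannot be told apart.

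**Figure D2:**
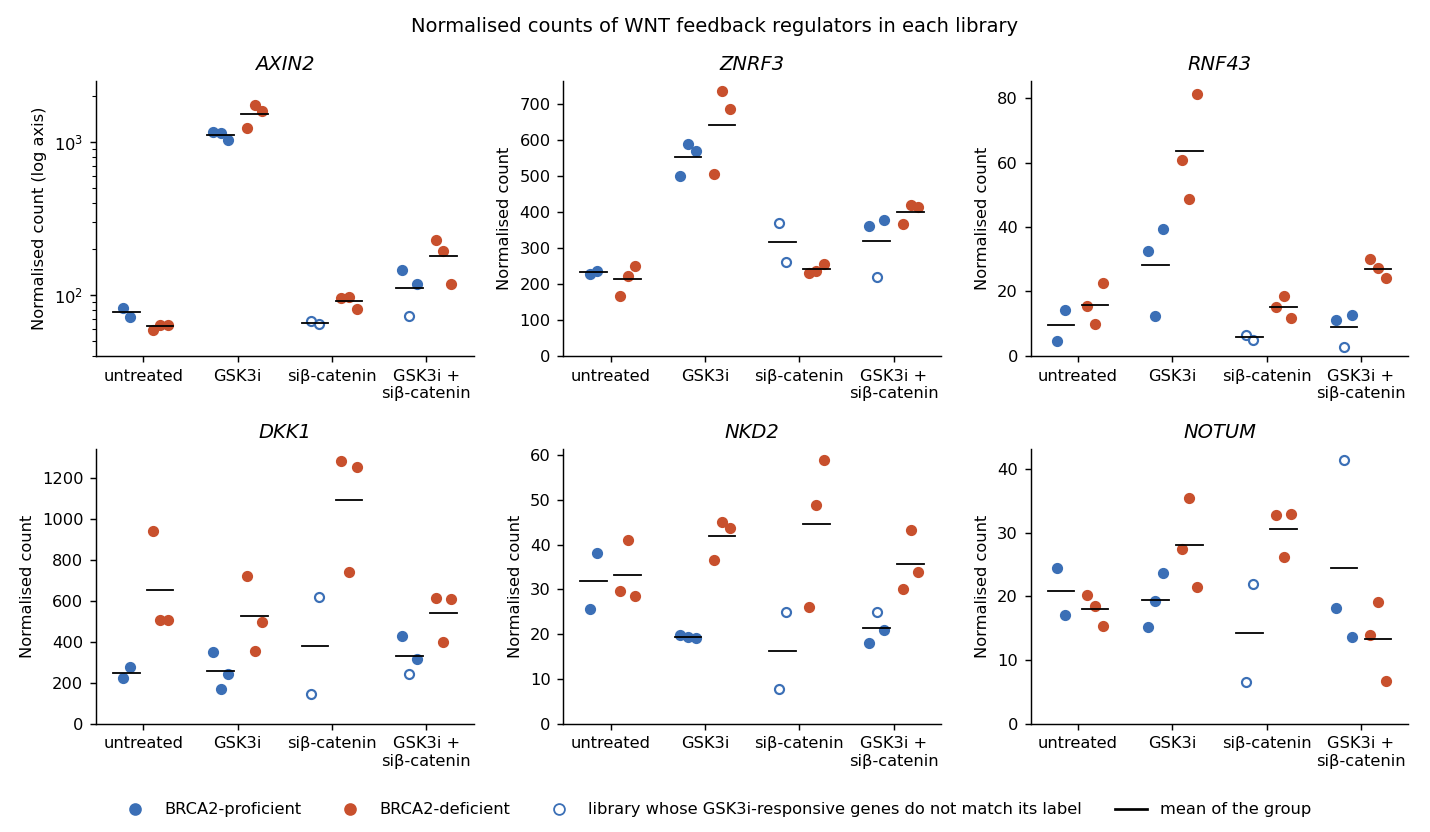
Normalised counts of 6 members in each of the 22 libraries by treatment, with BRCA2-proficient libraries in blue, BRCA2-deficient in orange and group means as black lines. The AXIN2 axis is logarithmic and the others start at 0. Open points mark the 3 libraries whose label is in doubt. AXIN2 and ZNRF3 were highest in the GSK3i groups, and DKK1 was lowest in BRCA2-proficient untreated and GSK3i cells.

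With GSK3i, AXIN2, ZNRF3 and, in BRCA2-deficient cells, RNF43 rose, and DKK1, NKD2 and NOTUM were not called in either background. Calling a gene required a DESeq2 adjusted p under 0.05 together with a log2 fold change larger than 0.5 in either direction. In BRCA2-proficient cells, 2 of 6 members were called higher and 0 lower, where 11.8% of all 16771 genes tested were called higher. In BRCA2-deficient cells, 3 of 6 were called higher and 0 lower, where 11.6% of 16863 genes were called higher. The median log2 fold change of the 6 members was 0.62 and 1.12, against 0 and 0.02 over all genes. The median of 6 values is the mean of the middle 2. These were DKK1 (0.02) and ZNRF3 (1.23) in BRCA2-proficient cells and NOTUM (0.65) and ZNRF3 (1.59) in BRCA2-deficient cells.

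AXIN2, the destruction-complex scaffold, stood at 82.4 and 72.3 normalised counts in BRCA2-proficient untreated cells and at 1153, 1145 and 1027 with GSK3i. In BRCA2-deficient cells it stood at 59.5, 63.9 and 63.4 untreated and at 1231, 1747 and 1593 with GSK3i. Every GSK3i library lay far above every untreated one. The log2 fold change was 3.83 ± 0.19 (SE), or 14.2-fold, in BRCA2-proficient cells (adjusted p = 1.49e-85) and 4.61 ± 0.22, or 24.4-fold, in BRCA2-deficient cells (adjusted p = 2.15e-93). The difference between the backgrounds was 0.77 ± 0.28 on the log2 scale and was not called (unadjusted p = 0.00671, adjusted p = 0.975). It reached the threshold only with a replicate block, whose pairing the libraries did not bear out. That fit also left out libraries whose number some group lacked.

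ZNRF3, the more abundant of the membrane ligases, stood at 228.7 and 237.0 in BRCA2-proficient untreated cells and at 500.8, 588.2 and 568.3 with GSK3i. In BRCA2-deficient cells it rose from 165.4, 223.1 and 250.7 to 506.3, 734.8 and 684.8. The groups did not overlap in either background. In BRCA2-proficient cells the log2 fold change was 1.23 ± 0.18, or 2.35-fold (adjusted p = 1.23e-10), and it was 1.59 ± 0.23, or 3.01-fold (adjusted p = 5.17e-10), in BRCA2-deficient cells.

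RNF43, its paralogue, was scarce. It stood at 4.64 and 14.3 in BRCA2-proficient untreated cells and at 32.6, 12.5 and 39.5 with GSK3i, so replicate 2 with GSK3i lay within the untreated range. In BRCA2-deficient cells it stood at 15.5, 9.75 and 22.5 untreated and at 60.7, 48.6 and 81.4 with GSK3i, with no overlap. The log2 fold change was 1.99 ± 0.44 in BRCA2-deficient cells (adjusted p = 6.02e-05) and 1.53 ± 0.69 in BRCA2-proficient cells, where it was not called (adjusted p = 0.0715). In BRCA2-proficient cells it was called in 1 model over all groups (adjusted p = 0.0337) and without GSK3i replicate 2 (1.9, adjusted p = 0.0484). The responses in the backgrounds differed by 0.45 ± 0.79, with a 95% interval from -1.09 to 1.99 (adjusted p = 1.0).

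**Figure D3:**
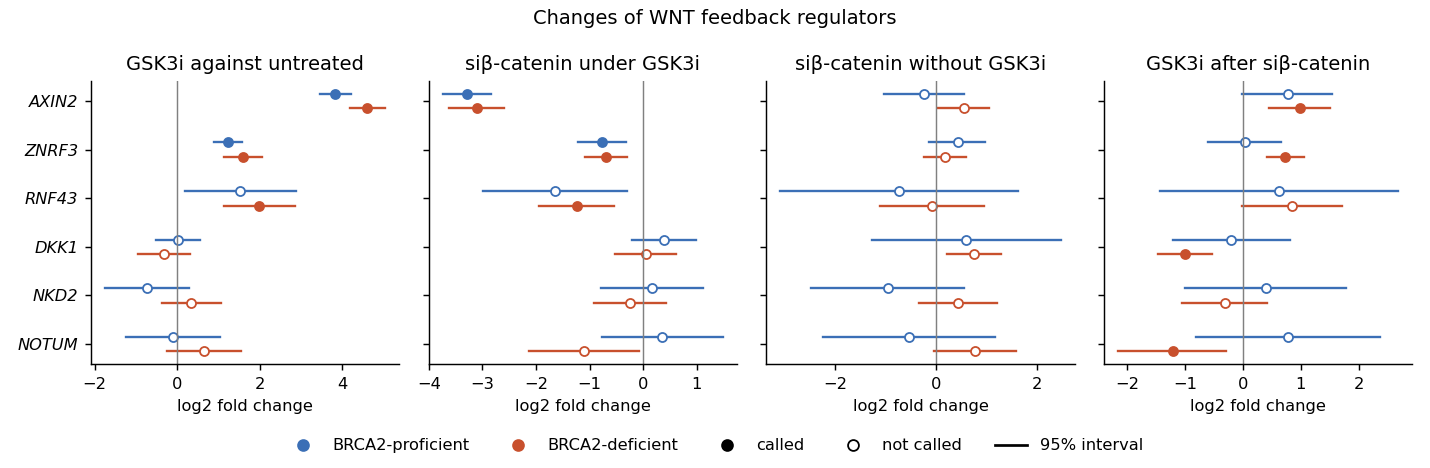
Log2 fold changes of 6 members in 4 comparisons, with BRCA2-proficient cells in blue, BRCA2-deficient in orange, 95% intervals as lines and filled points for called changes. AXIN2 rose by 3.83 and 4.61 with GSK3i and changed by -3.29 and -3.10 with siβ-catenin under GSK3i; the axis range differs between panels, and in every panel with siβ-catenin the BRCA2-proficient values use libraries that do not match their label.

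The secreted antagonists and NKD2 did not follow. DKK1 stood at 221.7 and 277.0 in BRCA2-proficient untreated cells and at 352.9, 168.4 and 245.8 with GSK3i, and its log2 fold change was 0.02 with a 95% interval from -0.51 to 0.55. In BRCA2-deficient cells the change was -0.32, with an interval from -0.95 to 0.31, and the groups overlapped in both backgrounds. NKD2 changed by -0.73 (-1.75 to 0.29) and 0.34 (-0.37 to 1.05), and NOTUM by -0.11 (-1.24 to 1.03) and 0.65 (-0.25 to 1.54). For NKD2 and NOTUM the intervals include changes of more than 1 on the log2 scale in both backgrounds.

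Under GSK3i, siβ-catenin lowered AXIN2 9.75-fold and 8.59-fold and lowered ZNRF3 by less, which addresses how far the GSK3i response needs β-catenin. In BRCA2-proficient cells 2 of 6 members were called lower, where 1.92% of 16393 genes were, and in BRCA2-deficient cells 3 of 6 were called lower, where 2.57% of 17025 genes were. These comparisons share the GSK3i libraries with the comparisons above. The edgeR quasi-likelihood test called AXIN2 only in each background.

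AXIN2 fell to 145.0, 73.1 and 117.4 in BRCA2-proficient cells with GSK3i and siβ-catenin, where 73.1 belongs to the library that looks like one without GSK3i. The log2 fold change was -3.29 ± 0.23 (adjusted p = 6.29e-42), and -3.06 (adjusted p = 7.11e-70) without that library. In BRCA2-deficient cells AXIN2 fell to 227.1, 192.5 and 117.5, a log2 fold change of -3.10 ± 0.26 (adjusted p = 4.33e-28). All of these values lay below every library with GSK3i alone.

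ZNRF3 fell to 361.5, 218.5 and 376.8 in BRCA2-proficient cells and to 365.1, 419.2 and 412.7 in BRCA2-deficient cells, below every library with GSK3i alone. The log2 fold changes were -0.77 ± 0.23 (adjusted p = 0.0191) and -0.69 ± 0.20 (adjusted p = 0.0117). Without the doubted BRCA2-proficient library given both agents the change was -0.56 and still called (adjusted p = 0.01). With a replicate block, for which the numbers paired the libraries in both backgrounds, the changes were -0.8 and -0.68. Both were called (adjusted p = 0.0105 and 6.85e-06), the BRCA2-proficient one with the doubted library included. The edgeR test did not call either change (adjusted p = 0.128 and 0.0924). In BRCA2-proficient cells the call was also lost without GSK3i replicate 2 (adjusted p = 0.209) or replicate 3 (0.141), and in BRCA2-deficient cells without GSK3i replicate 2 or 3 (0.216 and 0.13) or any 1 of the 3 libraries with both agents (0.0701 to 0.0782).

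RNF43 stood at 30.0, 27.2 and 24.1 in BRCA2-deficient cells with both agents, below the 48.6 to 81.4 of GSK3i alone, and its log2 fold change of -1.24 ± 0.35 was called (adjusted p = 0.0111). With a replicate block, for which the numbers paired the libraries, the change was -1.22 and called (adjusted p = 0.00961). The call was lost with edgeR (adjusted p = 0.0675), in the model over all groups (0.0589), without GSK3i replicate 3 (0.204) and without replicate 2 or 3 of the group with both agents (0.0867 and 0.126). In BRCA2-proficient cells RNF43 stood at 11.1, 2.89 and 12.7, and the change of -1.64 ± 0.68 was not called (adjusted p = 0.145). It was called in the model over all groups (-1.64, adjusted p = 0.0202), and was -1.22 without the doubted library. DKK1 changed by 0.39 and 0.05, NKD2 by 0.16 and -0.24 and NOTUM by 0.36 and -1.11, and none of these was called. The NOTUM value in BRCA2-proficient cells rests on 41.4 counts in the doubted library and was -0.27 without it.

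Without GSK3i, DESeq2 called 0 of 6 members with siβ-catenin in either background, and edgeR also called 0. Over all genes, 2.97% of 17654 and 2.03% of 17324 were called in either direction by DESeq2. NKD2, RNF43 and NOTUM had no adjusted p in the BRCA2-proficient comparison and so could not be called by DESeq2. At an unadjusted p under 0.05 there were 0 members in the BRCA2-proficient and 2 in the BRCA2-deficient comparison, namely AXIN2 (0.55, adjusted p = 0.294) and DKK1 (0.75, adjusted p = 0.129). AXIN2 stood at 94.96, 96.9 and 80.8 in BRCA2-deficient cells with siβ-catenin, all above the untreated 59.5 to 63.9. In BRCA2-proficient cells it stood at 67.2 and 65.0, just below the untreated 72.3 and 82.4, although siβ-catenin replicate 2 looked like a library with GSK3i over other genes.

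DKK1 in BRCA2-deficient cells stood at 941.3, 509.1 and 506.5 untreated and at 1286, 742.4 and 1254 with siβ-catenin, where each numbered library was above its untreated counterpart. With a replicate block, for which the numbers paired the libraries, the log2 fold change was 0.77 and called (adjusted p = 0.00448). It was called too without untreated replicate 1 (1.10, adjusted p = 0.000234) or siβ-catenin replicate 2 (0.96, adjusted p = 0.0432). In BRCA2-proficient cells the libraries labelled siβ-catenin held 143.3 and 617.6, around the untreated 221.7 and 277.0. DKK1 was 0.60 there with an interval from -1.28 to 2.48. It was 1.31 without siβ-catenin replicate 2 and -0.81 without replicate 3, each with 1 siβ-catenin library left. These libraries therefore cannot place it.

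GSK3i given after siβ-catenin still raised AXIN2 and ZNRF3 in BRCA2-deficient cells and lowered DKK1 and NOTUM. Here 2 members were called higher and 2 lower, where 20.1% of 17610 genes were called in either direction. AXIN2 rose by 0.98 ± 0.27 (adjusted p = 0.00258), or 1.97-fold, and ZNRF3 by 0.73 ± 0.17 (adjusted p = 0.000173), or 1.66-fold, with no overlap of the groups. DKK1 fell from 742.4 to 1286 down to 400.0 to 614.2, a log2 fold change of -1.0 ± 0.24 (adjusted p = 0.000349), and this call was lost in the model over all groups (adjusted p = 0.093). NOTUM stood at 32.8, 26.1 and 33.0 with siβ-catenin and at 14, 19.1 and 6.78 after GSK3i, a log2 fold change of -1.22 ± 0.48 (adjusted p = 0.0434). Leaving out any of 5 of the 6 libraries ended the NOTUM call (adjusted p = 0.0677 to 0.245). RNF43 was 0.84 ± 0.44 and was not called (adjusted p = 0.154).

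In BRCA2-proficient cells the same comparison called 0 of 6 members with DESeq2 and 0 with edgeR, with 0 at an unadjusted p under 0.05. Only 0.0529% of 17010 genes were called, and both groups held libraries that do not match their label. Without both libraries numbered 2, an alternative added after seeing the data, AXIN2 was 1.02, ZNRF3 was 0.50 and DKK1 was -0.72. None of these was called. That fit left 1 library with siβ-catenin alone, replicate 3, whose label is also in doubt.

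The interaction term tests whether the GSK3i response itself differed with siβ-catenin. In BRCA2-deficient cells 1 of 6 members was called, where 0.486% of 18117 genes were. NOTUM (-1.89 ± 0.58, DESeq2 unadjusted p = 0.00104) had no adjusted p in this fit and so could not be called. The AXIN2 response was smaller by 3.65 ± 0.34 on the log2 scale with siβ-catenin (adjusted p = 2.51e-22). The numbers paired the libraries here, and with a replicate block 3 members were called: AXIN2, ZNRF3 (-0.87, adjusted p = 0.00141) and NOTUM (-1.93, adjusted p = 0.0436). Without the block ZNRF3 was -0.87 ± 0.26 (adjusted p = 0.103). In BRCA2-proficient cells 2 of 6 were called, where 7.63% of 17093 genes were: AXIN2 (-3.06 ± 0.38, adjusted p = 5.89e-12) and ZNRF3 (-1.20 ± 0.36, adjusted p = 0.0189). RNF43 and NOTUM had no adjusted p there. Without both libraries numbered 2, AXIN2 was -2.82 and ZNRF3 was -0.73 and not called. That fit left 1 library with siβ-catenin alone, whose label is also in doubt. The ZNRF3 call was also lost with edgeR (adjusted p = 0.104), with a replicate block (0.0501), and without untreated replicate 2 (0.112) or 3 (0.135), GSK3i replicate 2 (0.0772) or 3 (0.0589), or siβ-catenin replicate 2 (0.229).

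Between backgrounds, DKK1 was called higher in BRCA2-deficient cells both untreated and under GSK3i, and NKD2 under GSK3i. In untreated cells 1 of 6 members was called, where 6.91% of 17157 genes were, and RNF43 and NOTUM had no adjusted p. Under GSK3i 2 of 6 were called, where 6.81% of 16336 genes were. DKK1 was higher in BRCA2-deficient cells by 1.36 ± 0.30 untreated (adjusted p = 0.000374), or 2.56-fold, and by 1.03 ± 0.31 under GSK3i (adjusted p = 0.0139), or 2.04-fold. In both conditions all 3 BRCA2-deficient libraries were above all BRCA2-proficient libraries. Under GSK3i, where the numbers paired the libraries, DKK1 was higher by 1.04 with a replicate block and called (adjusted p = 2.01e-08). The edgeR test called neither difference of DKK1 (adjusted p = 0.0578 and 0.103), nor did the model over all groups (0.0734 and 0.0853). The untreated call was also lost without BRCA2-proficient untreated replicate 2 (0.109), and the call under GSK3i without BRCA2-proficient replicate 2 (0.174) or 3 (0.103) or BRCA2-deficient replicate 3 (0.059).

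NKD2 was at 19.8, 19.3 and 19.2 in BRCA2-proficient cells with GSK3i and at 36.7, 45.1 and 43.8 in BRCA2-deficient cells with GSK3i. The log2 fold change was 1.11 ± 0.39 (adjusted p = 0.0474), and with a replicate block it was 1.10 and not called (adjusted p = 0.122). The call was also lost without a filter on low counts (adjusted p = 0.0593) and without any 1 of 5 of the 6 libraries (0.157 to 0.238). RNF43 was higher by 1.17 ± 0.44 and not called (adjusted p = 0.0701), and with the block, for which the numbers paired the libraries, by 1.25 and called (adjusted p = 0.0282), with 48.6 to 81.4 counts against 12.5 to 39.5. AXIN2 was higher by 0.46 ± 0.18 under GSK3i (adjusted p = 0.0867), and by 0.61 without BRCA2-deficient GSK3i replicate 1 (adjusted p = 0.00013). Its BRCA2-deficient values of 1231 to 1747 were all above the BRCA2-proficient 1027 to 1153.

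With siβ-catenin, DESeq2 called 0 of 6 members between backgrounds without GSK3i, where 27.4% of 17813 genes were called, and 0 of 6 under GSK3i, where 7.74% of 17046 genes were. At an unadjusted p under 0.05 there were 1 and 3 members, and edgeR called 1 and 0. Under GSK3i, RNF43 (1.6 ± 0.61, DESeq2 unadjusted p = 0.00876) and NOTUM had no adjusted p and so could not be called by DESeq2. The first comparison rests on the libraries labelled siβ-catenin. DKK1 was 1.5 there (adjusted p = 0.133), 0.79 without replicate 2 and 2.90 without replicate 3, and edgeR gave 1.51 (adjusted p = 0.0494). Without replicate 3, NKD2 was 2.50 and NOTUM was 2.18. Leaving out either replicate left 1 BRCA2-proficient library. Without replicate 3 that was replicate 2, which looked like a library with GSK3i. Under GSK3i with siβ-catenin DKK1 was 0.71 ± 0.26 (adjusted p = 0.063), with a replicate block 0.72 and called (adjusted p = 0.00724), and 0.53 (adjusted p = 0.157) without the doubted library. It was called without BRCA2-proficient replicate 1 of this group (0.94, adjusted p = 0.0208) or BRCA2-deficient replicate 2 (0.89, adjusted p = 0.0382).

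Tests of whether responses differed with BRCA2 status called 0 of 6 members. For the GSK3i response 0.0345% of 17381 genes were called, with 2 members at an unadjusted p under 0.05 and 0 by edgeR. For the siβ-catenin response under GSK3i 0.0057% of 17544 genes were called, with 1 member at an unadjusted p under 0.05 and 0 by edgeR. The siβ-catenin response of AXIN2 differed by 0.20, with a 95% interval from -0.52 to 0.93, and by -0.03 without the doubted library. That of ZNRF3 differed by 0.09, with an interval from -0.51 to 0.70.

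Across the 8 groups, mean AXIN2 ran from 1524 ± 265.0 (SD, n = 3) in BRCA2-deficient GSK3i cells and 1108 ± 70.3 in BRCA2-proficient GSK3i cells, through 179.0 ± 56.0 and 111.9 ± 36.3 with both agents, to between 62.3 and 90.9 in the 4 groups without GSK3i. The middle neighbours in this order overlapped, from BRCA2-deficient cells with both agents down to BRCA2-proficient untreated cells. ZNRF3 had the same top 4 groups, at 642.0 ± 120.0, 552.5 ± 45.8, 399.0 ± 29.5 and 318.9 ± 87.4. The 2 groups with GSK3i alone overlapped, as did the 2 groups with both agents. BRCA2-proficient cells with both agents also overlapped those with siβ-catenin alone (314.9 ± 75.1). DKK1 was ordered by background instead. Its 4 BRCA2-deficient means (524.4 to 1094) were above its 4 BRCA2-proficient means (249.3 to 380.4), and every neighbouring pair of groups overlapped. RNF43 was highest in BRCA2-deficient GSK3i cells (63.6 ± 16.5), clear of the next group. NKD2 had its 4 BRCA2-deficient means (33.2 to 44.6) above its BRCA2-proficient means (16.4 to 31.8), and NOTUM ran from 13.3 to 30.6 with all neighbours overlapping.

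Among the 5 genes whose 8 group means were most like those of AXIN2, of 11897 genes with a mean of at least 100, were TBL3 (Pearson r = 0.991), POLRMT (0.976), FRMD5 (0.974) and PALD1 (0.972). TBL3 ran from 1802 in BRCA2-proficient untreated cells to 2732 with GSK3i. ZNRF3 was ranked 63 (r = 0.936) and DKK1 was ranked 7603 (r = -0.159). These correlations describe 8 means that share libraries, including doubted ones.

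Other genes of the pathway moved in both directions with GSK3i. Of other WNT inhibitors, 2 of 19 tested rose and 6 fell in BRCA2-proficient cells, and 3 of 22 rose and 6 fell in BRCA2-deficient cells, with a median log2 fold change of -0.26 and -0.36. Over all genes tested, 11.8% and 11.6% rose and 14.2% and 13.8% fell. AXIN1, the AXIN2 paralogue, rose by 0.60 and 1.0, and DACT1, which binds Dishevelled, by 1.06 and 1.16. KREMEN1, a DKK1 co-receptor, fell by 1.18 and 1.01, DKK3 fell by 0.80 in both, CXXC5 fell by 1.06 and 1.07, and CXXC4, like CXXC5 a Dishevelled-binding protein, fell (-1.38 and -1.69).

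Of ligands, receptors and their partners, 4 of 28 rose and 8 fell in BRCA2-proficient cells, and 4 of 29 rose and 6 fell in BRCA2-deficient cells. The rises, 14.3% and 13.8% of those tested, were near the 11.8% and 11.6% over all genes. The falls were 28.6% and 20.7%, against 14.2% and 13.8% over all genes. The Frizzled receptors FZD1 (-0.72 in both backgrounds), FZD2 (-1.21 and -0.96) and FZD7 (-1.18 and -1.08) fell, while FZD5 rose (0.62 and 0.89). FZD7, for example, averaged 853.8 in BRCA2-proficient untreated and 380.7 in GSK3i cells. The ligands WNT5A and WNT10A fell in both backgrounds, and WNT10B, WNT16 and the Dishevelled gene DVL1 rose.

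Of other WNT target genes, 4 of 9 rose and 1 fell in BRCA2-proficient cells, and 5 of 9 rose and 1 fell in BRCA2-deficient cells. The shares over all genes were 11.8% and 11.6% that rose and 14.2% and 13.8% that fell. LEF1 rose by 2.83 and 3.05, TCF7 by 2.43 and 2.24 and SOX4 by 1.63 and 1.45, while the adhesion receptor CD44 fell by 0.63 and 0.77. Under GSK3i, siβ-catenin lowered 4 of 9 targets when BRCA2 was present and 7 of 9 after its depletion, and raised 0. Among the inhibitors siβ-catenin raised 3 and lowered 1 of 20 in BRCA2-proficient cells, and raised 1 and lowered 2 of 21 in BRCA2-deficient cells. Over all genes tested, 3.18% and 2.95% were raised and 1.92% and 2.57% lowered. DKK3 rose in both (0.69 and 0.56). The study named LEF1, TCF7, SOX4 and CCND1 from these libraries, so the count of targets is not independent evidence of its direction.

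**Figure D4:**
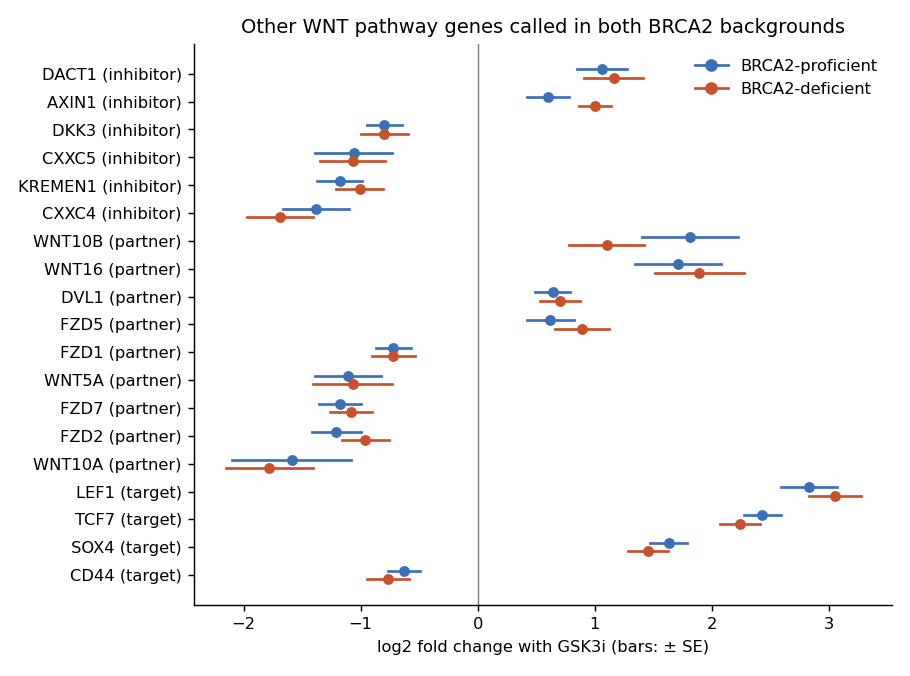
Log2 fold changes with GSK3i, with SE bars, of the 19 other WNT pathway genes called in both backgrounds, with BRCA2-proficient cells in blue and BRCA2-deficient in orange. The targets LEF1, TCF7 and SOX4 rose, whereas the receptors FZD1, FZD2 and FZD7 and the inhibitors DKK3, KREMEN1, CXXC4 and CXXC5 fell.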

How the data were processed

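RNA-seq was performed on poly(A)-enriched, strand-specific libraries of H1299 cells. The authors aligned reads to GRCh37 with HISAT2 2.0.4, used SAMtools 1.4, removed duplicates with Picard 1.9.2 and counted uniquely mapping reads per Ensembl gene with featureCounts 1.5.0. Versions are those of the submitters' processing notes, and the study's reporting summary lists other versions of HISAT2, Picard and featureCounts, so which made the table is not known. The deposited table held these raw counts. The Ensembl release and strand setting are not given in the sources used here. Removing duplicates lowers abundant genes most, and unique mapping lowers genes with close copies. Symbols were matched for 29629 of 37908 identifiers with GENCODE on GRCh37, and 8279 had none.

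Differential expression was tested within R 4.3.3 by DESeq2 1.42.0 (Wald test, two-sided, median-of-ratios size factors, no shrinkage, Benjamini-Hochberg adjustment over all genes tested) on the libraries of each comparison alone, after the study's methods. Genes with fewer than 10 counts in more than 3 libraries were left out, and interactions needed at least 10 counts in at least 3 libraries. Groups came from the labels. Some low genes received no adjusted p and were counted as not called (NOTUM in 5 comparisons, RNF43 in 4 and NKD2 in 1). Alternatives were edgeR 4.0.16 (quasi-likelihood, TMM), TMM factors in DESeq2, no filter, 1 model over all groups, a replicate block and leaving out each library. The block used only libraries whose number occurred in every group of a comparison, so some of those fits had fewer libraries. The fits were tested on simulated data. Tables and figures used Python 3.11.15, pandas 2.3.3 and matplotlib 3.10.9.

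Library totals of 18.9 to 29.3 M counts (median 23.2) set the counting error, and replicates differed by more than counting error in all 20 replicate pairs (chi-square per gene 10.8 to 64.4). Whether replicate numbers pair libraries was checked by correlating deviations from group means over 2000 genes, with r from -0.47 to 0.73 over 41 same-numbered pairs, 29 of them over 0.1. The numbers were taken to pair libraries where all pairs of a comparison with at least 3 were over 0.1. This held for every comparison within BRCA2-deficient cells, for siβ-catenin added to GSK3i in cells with BRCA2, and for both BRCA2 comparisons under GSK3i and their interaction. Members and lists were chosen with earlier results of these data known. All members are named, with listed pathway genes called in both backgrounds with GSK3i in the same direction, and the 5 genes most like AXIN2 over group means of log2(normalised count + 1), of which 1 is not reported here, nor is 1 promoter window of a member.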

Additional observations from a re-analysis of the deposited data

Results flagged for a closer look

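The GSK3i response differed with siβ-catenin by a test of the difference itself in 3 cases. AXIN2 responded less by 3.65 on the log2 scale in BRCA2-deficient cells (-3.65) and by 3.06 in BRCA2-proficient cells (-3.06), and ZNRF3 by 1.2 in BRCA2-proficient cells (-1.2). Both BRCA2-proficient values include libraries that do not match their label, and the ZNRF3 call was lost without both libraries numbered 2. It was also lost with edgeR (adjusted p = 0.104), with a replicate block (0.0501), and without any 1 of 4 libraries of untreated or GSK3i cells whose labels are not doubted (0.0589 to 0.135).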

How the results depend on the processing

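No log2 fold change of a member reversed under an alternative while called. TMM factors kept the direction and the side of the threshold for 96 of 96 values, no filter 94, the edgeR test 89, 1 model over all groups 86 and the replicate block 82. The edgeR test called 1 member for siβ-catenin under GSK3i in each background, 0 for BRCA2 status untreated, 1 under GSK3i, 1 with siβ-catenin, and 1 for the interaction of GSK3i and siβ-catenin in BRCA2-proficient cells. No filter gave 1 member for BRCA2 status under GSK3i and 1 with siβ-catenin. The model over all groups gave 0 untreated, 1 under GSK3i, 2 with siβ-catenin (DKK1, NKD2) and 2 with both agents (AXIN2, RNF43). The replicate block gave 1 member for siβ-catenin in BRCA2-deficient cells, 1 for BRCA2 status with siβ-catenin (DKK1, 1.66, adjusted p = 0.000321) and 1 with both agents. For BRCA2 status with siβ-catenin the numbers did not pair the libraries (r = -0.03 and -0.08). Both BRCA2-proficient libraries there have a doubted label. For the interactions the block gave 1 in BRCA2-proficient cells (AXIN2), 3 in BRCA2-deficient cells and 1 for BRCA2 status and GSK3i (AXIN2, 0.9, adjusted p = 0.0445). Beside these and the calls of NKD2 and RNF43 between backgrounds under GSK3i, it changed no call of a member. Where a group had no replicate 1, the block also left out the libraries numbered 1 of the other groups. Without both doubted libraries numbered 2 the BRCA2-proficient interaction kept 1 member. The cause of these changes was not tested.

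Leaving out each library in turn gave 1 to 2 members for siβ-catenin under GSK3i with BRCA2 present and 1 to 3 after its depletion, and 0 to 1 for siβ-catenin without GSK3i in each. For BRCA2 status it gave 0 to 1 untreated, 0 to 3 under GSK3i, 0 to 3 with siβ-catenin and 0 to 1 with both agents. For the interaction of GSK3i and siβ-catenin it gave 1 to 2 in each background. GSK3i against untreated gave 2 to 3 and 3 to 3. For comparisons that use the BRCA2-proficient groups of 2 libraries, these ranges include fits with 1 library in a group.

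Counts over all genes moved more. In BRCA2-proficient cells siβ-catenin without GSK3i called 524 genes, and 1 with edgeR. In BRCA2-deficient cells it called 351 and 0 with edgeR. Crossing the replicate numbers in the BRCA2-proficient comparison, added after seeing the data, gave 0 members. Few reads limit the precision of RNF43, NOTUM and NKD2, and NKD1 was not read.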

Other observations

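In BRCA2-deficient cells that had received siβ-catenin, GSK3i lowered 8 of the 22 other WNT inhibitors tested and raised 0, where 11.5% of all genes tested fell and 8.56% rose. The list had a median log2 fold change of -0.32, against 0.01 over all genes. Among those that fell were SFRP1, a secreted WNT antagonist (-1.12 ± 0.25, adjusted p = 0.000123), the co-repressor TLE3 (-0.94 ± 0.16, adjusted p = 1.13e-07) and KREMEN1 (-0.75 ± 0.18, adjusted p = 0.000332). Of the 9 other targets tested in the same libraries, TCF7 rose (0.69), while SP5 (-1.3) and MYC (-0.87) fell.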
